A study of Mus musculus with 8 samples.

Results

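The 6 mouse genes Accsl, Fbxo15, Fndc3b, Jam2, Aqp3 and H2-M5 were examined across oocytes, naive pluripotent cells and the epiblast-like cells that follow them. They were selected on measured values, out of 48440 genes in the deposited tables: their RNA fell from embryonic stem cells to epiblast cells, and their levels in oocytes were set beside that fall. Those 2 properties therefore chose the genes, and they are given below as description without a test. The split of each gene among its transcripts did not enter the choice and was tested. The change between the oocyte stages was tested as well. Oocyte levels were among the values used for the choice, so the p-values of that change are not independent of it. The working name of the group, genes shared by oocytes and naive cells, held for only some of them. Accsl was higher in both oocyte stages than in stem cells, Fndc3b was higher at the later stage, Fbxo15, Jam2 and H2-M5 were present in oocytes below the stem cell level, and Aqp3 was under 1 TPM (transcripts scaled by length and library size) in all 4 oocyte libraries.

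Naive pluripotency is the state of the inner cell mass before implantation, and mouse stem cells keep it when LIF signalling is supplied and the MEK and GSK3 kinases are inhibited. On withdrawal of these factors the cells move toward the epiblast of the implanted embryo and shut off a set of naive genes. Fully grown oocytes store maternal mRNA and stop transcribing before the meiotic divisions, so that RNA levels between the germinal vesicle stage and metaphase II change through decay, storage and polyadenylation of RNA that is already there. The genes have unlike products. Accsl encodes a relative of plant ACC synthase in the family of enzymes that use pyridoxal phosphate, and Fbxo15 encodes an F-box protein, the part of an SCF ubiquitin ligase that receives substrates. Fndc3b encodes a membrane-anchored protein with fibronectin type III domains, Jam2 a junctional adhesion molecule of the immunoglobulin superfamily, Aqp3 a channel for water and glycerol, and H2-M5 a non-classical MHC class I chain.

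The 8 libraries came from 4 groups of 2. Fully grown oocytes still holding their germinal vesicle (GV) came from mice given 5 units of PMSG 48 h before a further injection that the labels do not name, and were collected in MEM with 2 µM milrinone, which holds meiotic arrest. Oocytes at metaphase II (MII) carry the same growth protocol in the labels, with no maturation step named. Embryonic stem cells (ESC) were kept in medium with 15% FBS, LIF, PD0325901 and CHIR99021. Epiblast cells made in vitro (EpiC) were plated for 24 h and then went without LIF and inhibitors, with collection about 56 h after that. No genotype, strain, age or cell line is stated in the labels used here. Nor is it stated whether replicates were separate animals or cultures, so that p-values measure only the spread between these samples, which may be technical.

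The libraries held 47463546 to 196788239 estimated counts, and replicate 2 was the deeper in every group, by 2.36 to 3.31 times. The deeper libraries also stood apart by the gene Gm42418, which took 14.7% of counts in ESC replicate 2, 22.7% in EpiC replicate 2 and at most 3.03% in each of the other 6 libraries. Leaving it out together with mitochondrial genes changed no call for the 6 genes between MII and GV. All 10 oocyte markers were at 1 TPM or more in GV and in MII, where they summed to between 25704 and 34768 TPM, against at most 71.2 TPM in the cultured cells. The 10 naive markers summed to 1998 to 2574 TPM in ESC and 179 to 343 TPM in EpiC, and the 9 epiblast markers to 65.0 to 98.3 TPM in ESC and 264 to 872 TPM in EpiC. Of the other cell types checked, the GV libraries had 33.7 and 173 TPM for 12 granulosa and cumulus markers together, against 52.0 and 63.1 TPM in MII and at most 25 TPM in the cultured cells. The 10 markers of trophoblast and endoderm summed to 291 and 540 TPM in EpiC against at most 23.8 TPM in ESC, and the 10 fibroblast markers to 64.3 and 143 TPM in EpiC against at most 4.82 TPM in ESC. Keratin genes Krt8 and Krt18, at 206 ± 97 and 197 ± 76 TPM in EpiC, made up most of the first sum and Tagln, at 97.2 ± 52.6 TPM, most of the second. By edgeR 2 of the 10 and 1 of 9 tested were higher in EpiC than in ESC, where 2.63% of all genes were. The part of other cells in the values below was not tested. In bulk RNA, fewer cells of a type and less RNA per cell cannot be told apart.

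The 6 genes spanned a wider range of levels in oocytes than in ESC, set by Accsl at the top and Aqp3 at the bottom. Their mean ESC levels spanned 16.1 to 335 TPM, and their mean MII levels spanned 0.0964 to 3521 TPM. With Accsl and Aqp3 set aside, the ratio of the highest to the lowest mean was no larger in GV or MII than in ESC. Oocyte levels were also among the values used to choose the genes, so this range is a description. Accsl, Fndc3b, Jam2 and H2-M5 were higher in both oocyte groups than in EpiC, so that EpiC was their lowest group. Fbxo15 was lowest in GV and Aqp3 lowest in MII. ESC was the highest group for Fbxo15, Jam2, Aqp3 and H2-M5, and MII the highest for Accsl and Fndc3b.

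**Figure D1:**
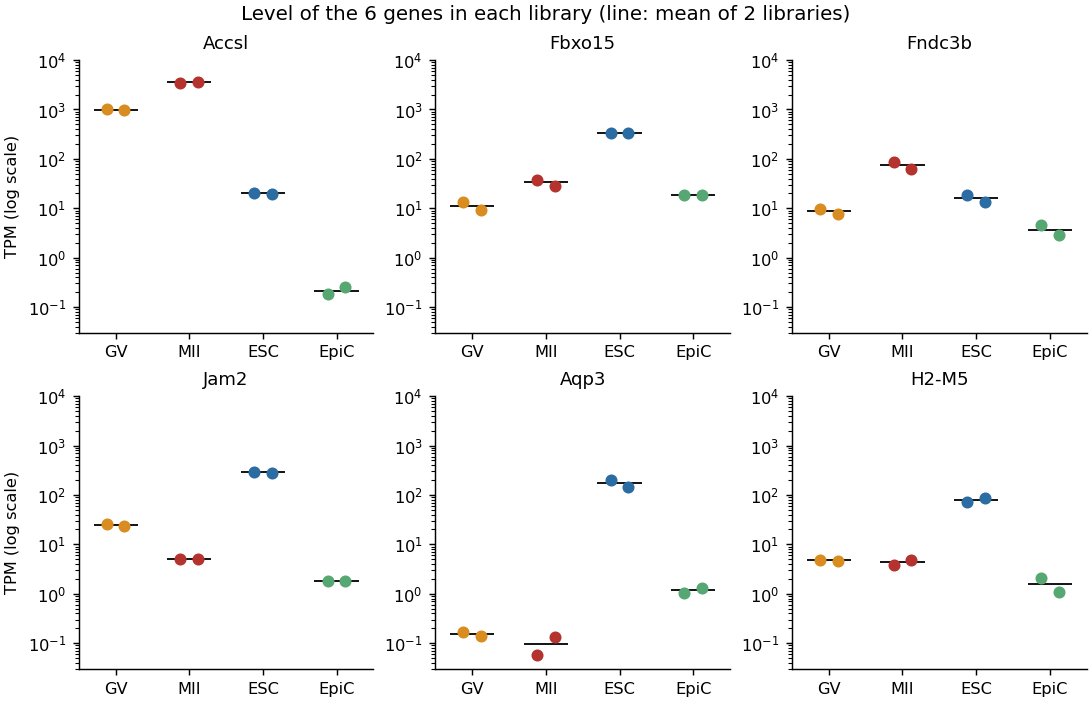
TPM of each gene (log axis) in the 2 libraries of GV, MII, ESC and EpiC, with a line at the mean of each group. Accsl runs from 3613 TPM in MII down to 0.180 TPM in EpiC, and Aqp3 from 199 TPM in ESC down to 0.0587 TPM in MII.

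Between the oocyte stages, 3 of the 6 genes rose from GV to MII by edgeR and none was called lower. DESeq2 called 4 higher, H2-M5 among them, and 0 lower, where it called 5470 of all genes higher and 5708 lower. Limma on log2(TPM + 1) called 3 higher and 1 lower, where it called 2408 of all genes higher and 8164 lower. At an unadjusted p under 0.05 edgeR had 4 higher and 1 lower, and the share of all genes at that p was not worked out. All 6 had passed the filter on low counts. Their levels in GV and MII were seen when they were chosen, so these calls are not independent of the choice. Of all 25045 genes tested, 17.4% were called higher and 22.2% lower in MII, 39.6% in all (edgeR quasi-likelihood test, adjusted p under 0.05). Fndc3b rose by 4.25 ± 0.37 (log2 fold change ± SE, adjusted p = 0.000518), Accsl by 2.99 ± 0.36 (adjusted p = 0.000549) and Fbxo15 by 2.74 ± 0.34 (adjusted p = 0.000584). These 3 were above both GV libraries in both MII libraries. They passed the test at every alternative scaling and with each library left out. The other 3 did not pass, with log2 fold changes of -0.84 ± 0.32 for Jam2 (adjusted p = 0.06), 0.99 ± 0.37 for H2-M5 (adjusted p = 0.0604) and -0.23 ± 0.45 for Aqp3 (adjusted p = 0.771).

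These changes are relative to the other mRNAs of each library. The choice of scale mattered for the calls of Jam2 and H2-M5 and for the size of the 3 rises called by edgeR. By limma on log2(TPM + 1) these rises were smaller, at 1.837 for Accsl, 1.499 for Fbxo15 and 2.94 for Fndc3b. With relative log expression scaling in edgeR they were larger, at 3.213, 2.981 and 4.492 in the same order. Over all genes tested the median was -0.53 on the log2 scale, and it shifted by 0.21 with relative log expression scaling, by 0.33 with DESeq2 and by 0.35 with limma on log2(TPM + 1). Limma on log2(TPM + 1) called 2408 genes higher and 8164 lower, against 4357 and 5572 by edgeR. Jam2 was called lower on log2(TPM + 1), with -2.08 (limma adjusted p = 0.000352), on log2(TPM + 0.1), with -2.26 (adjusted p = 0.000459), and with a correction for the length of the transcripts in use, with -1.11 (edgeR adjusted p = 0.0173). Its adjusted p ran from 0.000352 to 0.189 over all 17 alternatives. H2-M5 was called higher with relative log expression scaling (1.22, edgeR adjusted p = 0.0321) and DESeq2 (1.22, adjusted p = 0.00849), but its value was -0.13 on log2(TPM + 1), in a range of adjusted p from 0.00849 to 0.876. Jam2 and H2-M5 also passed the threshold by edgeR with a replicate block, though nothing in the labels pairs the libraries. The estimate for Aqp3 turned from -0.23 to 0.51 with the length correction, and rests on 4 to 28.8 estimated counts per oocyte library.

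**Figure D2:**
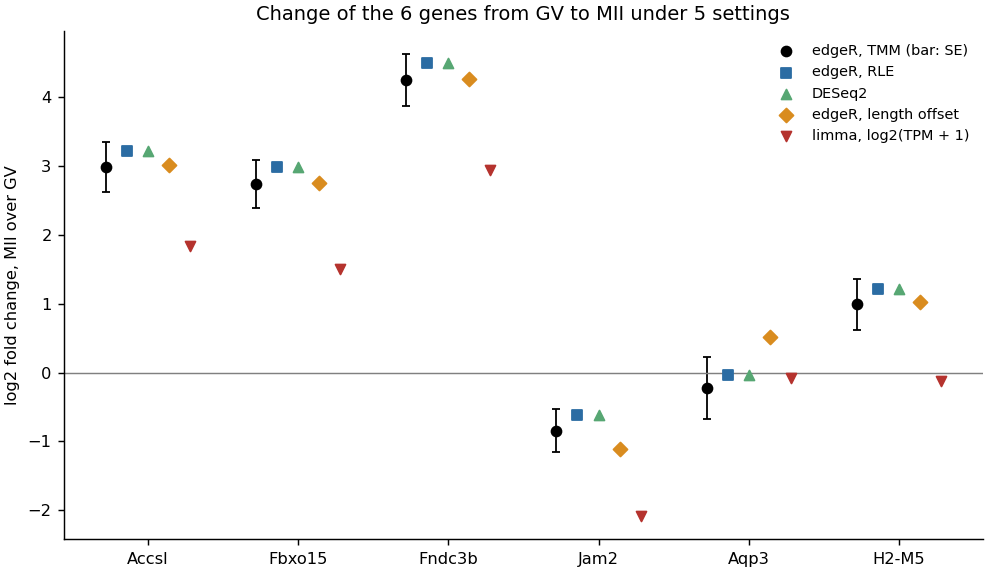
Log2 fold change of MII over GV for each gene under 5 settings, with the SE of the TMM-scaled edgeR value as a bar. Accsl, Fbxo15 and Fndc3b lie above 0 in all 5, Jam2 lies below 0 in all 5, and H2-M5 and Aqp3 have values on both sides of 0.

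Accsl was the gene of the group with the most oocyte RNA. It lies on the minus strand of chromosome 2 at chr2:93855361-93869157 (GRCm38, GENCODE M21). MII held 3430 and 3613 TPM, GV 1007 and 963 TPM, ESC 20.8 and 19.0 TPM, and EpiC 0.180 and 0.250 TPM. The groups did not overlap, in the order MII, GV, ESC, EpiC. The mean was 49.5 times the ESC mean in GV and 177 times in MII, and ESC stood 92.7 times above EpiC, where the gene rested on 5 and 14 estimated counts. The fitted log2 fold changes, given as description, were 6.13 for GV against ESC and -7.40 for EpiC against ESC.

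The longest Accsl transcript, Accsl-001, with 15 exons and 1740 coding bases, made up 67.9% ± 2.2 (SD, n = 2) of the gene's TPM in GV, 67.2% ± 1.0 in MII and 58.0% ± 8.5 in ESC. Accsl-005, a short non-coding transcript of 458 bases, made up 4.26% ± 0.25 in GV, 5.54% ± 0.08 in MII and 22.4% ± 0.6 in ESC. Accsl-002, non-coding and 498 bases long, made up 11.1% ± 0.7 in GV and 1.36% ± 0.04 in ESC. The split between transcripts did not pass the test for GV against ESC (edgeR diffSpliceDGE, Simes adjusted p = 0.0755), and it did with the F test per gene (adjusted p = 0.00516) and without ESC replicate 2 (adjusted p = 0.0404), in a range of 0.00516 to 0.349 over the alternatives. Nor did EpiC against ESC pass (adjusted p = 0.0819). It did without EpiC replicate 1 (adjusted p = 0.0271) and with only transcripts of at least 1 TPM in 2 libraries (adjusted p = 0.0474), and its adjusted p ran up to 1 over the alternatives. The EpiC shares, in which Accsl-006 and Accsl-008 also passed 10%, rest on 5 and 14 counts and are not described.

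The paralog Accs lies 5417 bases away on the same strand and had another order of levels. Its mean level was 2.63 ± 0.25 TPM in GV, 0.0712 ± 0.1006 TPM in MII, 7.37 ± 1.49 TPM in ESC and 2.79 ± 0.41 TPM in EpiC. It fell from GV to MII by 4.05 ± 0.99 on the log2 scale (edgeR adjusted p = 0.00999), in the comparison in which Accsl rose. Reads from sequence the paralogs share could be split between them, to an extent not given in the tables. Among 13 tested genes of other enzymes that use pyridoxal phosphate, mostly aminotransferases, 2 rose and 5 fell from GV to MII, with a median log2 fold change of -1.05 against -0.53 for all genes, of which 17.4% rose and 22.2% fell. In EpiC against ESC, 1 of the 13 rose and 2 fell, where 2.63% of all genes were called higher and 2.83% lower.

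Fndc3b was the gene of the 6 with the largest rise in the oocyte and the smallest fall outside it. It lies at chr3:27416162-27711307 on the minus strand. Its level was 9.76 and 7.81 TPM in GV, 86.6 and 62.8 TPM in MII, 18.8 and 13.4 TPM in ESC, and 4.58 and 2.82 TPM in EpiC. The groups did not overlap, in the order MII, ESC, GV, EpiC. The ESC mean was 4.36 times the EpiC mean, with fitted log2 fold changes of -2.29 for EpiC against ESC and -0.68 for GV against ESC.

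The 5′ end of Fndc3b RNA differed between GV oocytes and ESC. Fndc3b-001 made up 59.3% ± 7.9 of the gene in GV and 57.6% ± 1.9 in MII, against 7.86% ± 6.47 in ESC. Fndc3b-002 made up 20.9% ± 5.6 in GV, 23% ± 4 in MII and 79.7% ± 6.3 in ESC. Fndc3b-003, a short transcript with 357 coding bases, made up 19.7% ± 2.3 in GV, 19.2% ± 2.2 in MII, 11.6% ± 1.1 in ESC and 21.2% ± 5.9 in EpiC. Every oocyte library lay above both ESC libraries for Fndc3b-001 and below both for Fndc3b-002. Both transcripts carry the same 3621 coding bases. They share 6809 exon bases and differ before the start codon, where Fndc3b-002 holds a further exon of 77 bases at chr3:27682738-27682814 and Fndc3b-001 has 66 more bases in exon 1. The change in usage between GV and ESC passed the test (edgeR diffSpliceDGE, Simes adjusted p = 0.00891), as 26.8% of the 11953 genes tested did, and the share of Fndc3b-001 relative to the gene was higher in GV by 3.15 on the log2 scale (adjusted p = 0.00725).

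The call for Fndc3b was lost without GV replicate 1 (adjusted p = 0.0832), without GV replicate 2 (0.0591) and without ESC replicate 1 (0.152), in a range of 0.0015 to 0.152 over the alternatives. In EpiC the shares were 58.5% ± 11.1 for Fndc3b-001 and 18.9% ± 15.1 for Fndc3b-002, and the change from ESC did not pass (adjusted p = 0.211). Usage did not pass between MII and GV (adjusted p = 1).

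Of 6 tested relatives with FNDC names, none rose and 2 fell from GV to MII by edgeR, with a median log2 fold change of -1.43, where 17.4% of all genes rose and 22.2% fell. None rose at an unadjusted p under 0.05, by DESeq2 or by limma either, and limma called 0 lower. Fndc3a, the paralog with the highest level in oocytes, had 23.6 ± 16.7 TPM in GV, 8.93 ± 2.80 TPM in MII, 20.8 ± 1.0 TPM in ESC and 17.3 ± 4.4 TPM in EpiC, with no edgeR call in any of the 3 comparisons. Fndc3c1 rose from 0.106 ± 0.095 TPM in ESC to 29.6 ± 27.4 TPM in EpiC (8.97 ± 1.01 on the log2 scale, edgeR adjusted p = 0.00327), the opposite direction to Fndc3b.

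Fbxo15, long used as a marker and reporter gene of mouse ESC, was the most abundant of the 6 in ESC. It lies on chromosome 18 at 84934782-84981473 on the plus strand, with a single transcript in the tables. Its level was 337 and 333 TPM in ESC, 13.1 and 9.38 TPM in GV, 38.2 and 28.9 TPM in MII, and 18.5 and 18.7 TPM in EpiC. These groups did not overlap. The ESC mean was 18.0 times the EpiC mean, 29.8 times the GV mean and 9.99 times the MII mean. The fitted log2 fold changes were -4.13 for EpiC against ESC and -4.59 for GV against ESC. Timm21, which codes for a mitochondrial import protein, lies inside Fbxo15 on the opposite strand and shares 0 exon bases with this transcript.

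Many F-box proteins act as part of an SCF ligase, together with an adaptor and a scaffold that other F-box proteins share. Skp1a, the adaptor that binds the F-box, was at 2716 ± 718 TPM in GV, 441 ± 29 TPM in MII, 267 ± 112 TPM in ESC and 262 ± 139 TPM in EpiC. Cul1, the scaffold, was at 761 ± 382 TPM in GV, 2159 ± 247 TPM in MII, 97.2 ± 20.9 TPM in ESC and 121 ± 56 TPM in EpiC. Of the 12 SCF genes tested, 6 rose and 4 fell from GV to MII, with a median log2 fold change of 0.74 against -0.53 for all genes, of which 17.4% rose and 22.2% fell. None of the 12 was called between ESC and EpiC by edgeR, DESeq2 or limma, and 0 had an unadjusted edgeR p under 0.05. By edgeR only 5.46% of all genes were called in that comparison. Skp2, another F-box gene and the strongest riser of the list from GV to MII (4.35 ± 0.38, edgeR adjusted p = 0.000518), was at 3.28 ± 0.28 TPM in GV and 30.1 ± 1.3 TPM in MII.

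Jam2 was abundant in ESC, lower in GV and lowest in EpiC. It lies at chr16:84774123-84825928 on the plus strand. Its level was 298 and 282 TPM in ESC, 25.4 and 23.9 TPM in GV, 5.05 and 5.09 TPM in MII, and 1.84 and 1.80 TPM in EpiC. The groups did not overlap, in that order. The ESC mean was 11.8 times the GV mean, 57.2 times the MII mean and 160 times the EpiC mean. The fitted log2 fold changes were -7.54 for EpiC against ESC and -3.49 for GV against ESC.

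Most of the Jam2 TPM of oocytes was assigned to a short transcript, Jam2-003, which cannot be told apart from unspliced RNA over 1 intron. Jam2-003 has 4 exons and runs on from exon 4 into the following intron, where its reading frame ends after 181 codons, against 298 codons over 10 exons in Jam2-001. The part in which the coding sequences part ways is shown because the difference between oocytes and ESC turns on it. Each sequence gives the last 30 bases of exon 4 that both share in lower case and then the next 146 coding bases of that transcript in capitals (5′ to 3′, GRCm38, GENCODE M21 transcripts, plus strand). The capitals lie in exon 5 at chr16:84812899-84813044 for Jam2-001 and at chr16:84809497-84809642 for Jam2-003.
Jam2-001: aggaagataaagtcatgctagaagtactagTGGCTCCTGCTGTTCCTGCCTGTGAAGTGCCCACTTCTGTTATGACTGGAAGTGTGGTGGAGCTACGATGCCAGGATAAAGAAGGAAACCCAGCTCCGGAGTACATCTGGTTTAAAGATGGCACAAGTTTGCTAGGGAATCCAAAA
Jam2-003: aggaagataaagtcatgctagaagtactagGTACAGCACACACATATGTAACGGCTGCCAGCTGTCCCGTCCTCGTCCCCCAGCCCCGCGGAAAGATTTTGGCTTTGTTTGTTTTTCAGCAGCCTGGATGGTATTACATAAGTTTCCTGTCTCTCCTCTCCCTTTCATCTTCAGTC
In the capitals, 30 of 146 positions hold the same base. Of the gene's TPM, Jam2-003 made up 6.23% and 10.6% in ESC, 73.6% and 55.1% in GV, 79.0% and 78.4% in MII, and 13.4% and 64.7% in EpiC. Jam2-001 made up 45.4% ± 4.1 in ESC, 15.3% ± 2.2 in GV and 21.3% ± 0.4 in MII. The rest of Jam2 TPM in ESC, 46.2% ± 7.2, was the non-coding Jam2-002, on 2743 and 7377 of the gene's 23044 and 86184 estimated counts. Jam2-001 held 19078 and 71895 of them. Jam2-002 is 659 bases long against 4370 for Jam2-001, and scaling by length gives it a larger share of TPM than of counts. Every oocyte library had the short form above both ESC libraries, while the EpiC libraries differed from each other by more than that, on 113 and 332 estimated counts for the whole gene.

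The usage of Jam2 transcripts differed between GV and ESC (edgeR diffSpliceDGE, Simes adjusted p = 0.0169), with Jam2-003 higher in GV relative to the gene by 3.17 on the log2 scale (adjusted p = 0.0154). This call was lost without GV replicate 1 (adjusted p = 0.106), GV replicate 2 (0.0709), ESC replicate 1 (0.161) or ESC replicate 2 (0.142), in a range of 0.00397 to 0.161. Usage also differed between MII and GV (adjusted p = 0.00456), which 5.99% of the genes tested did. Jam2-002, a non-coding transcript of 659 bases, made up 12.7% and 28.0% of the gene's TPM in GV, on 83.7 and 477 of its 2602 and 6223 estimated counts. The exons of Jam2-002 lie within exons 4 to 10 of Jam2-001, apart from 1 that starts at chr16:84818758 in place of 84818760. Reads of these transcripts can hardly be told apart, so the split between them depends on how shared reads were assigned. Whether Jam2-002 was lost in MII as a separate RNA was not tested. Jam2-002 had 0 counts in both MII libraries, which allows up to 0.599% and 0.218% of the gene's counts there, not of its TPM. That call was lost without MII replicate 1 (adjusted p = 0.054) and without MII replicate 2 (0.12), in a range of 0.00278 to 0.12. 

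Other members of the family that includes the junctional adhesion molecules and coxsackievirus receptor gave counts as follows by edgeR. Of 8 tested, 1 rose and 2 fell from GV to MII, 1 fell from ESC to EpiC, and 6 were lower in GV than in ESC, with a median log2 fold change of -3.05 for GV against ESC against -0.51 for all genes. Over all genes, 17.4% rose and 22.2% fell from GV to MII, 2.83% fell from ESC to EpiC, and 31.3% were lower in GV than in ESC. DESeq2 and limma each called 3 of the 8 lower in EpiC. Jam3, which binds Jam2 between cells, was at 28.2 ± 2.0 TPM in GV, 20.9 ± 1.7 TPM in MII and 26.1 ± 2.8 TPM in ESC, and at 10.5 ± 3.4 TPM in EpiC, with no edgeR call (adjusted p = 0.0603 for EpiC against ESC). F11r, the gene of JAM-A, was at 37.2 ± 1.4 TPM in ESC, 51.1 ± 6.4 TPM in EpiC and under 1 TPM in the mean of both oocyte groups. Gpa33, a surface antigen gene of the same family, fell from 33.3 ± 7.4 TPM in ESC to 2.89 ± 0.03 TPM in EpiC (-3.42 ± 0.40, edgeR adjusted p = 0.00272) and rose from 4.91 ± 0.74 TPM in GV to 18.4 ± 1.6 TPM in MII (3.06 ± 0.39, adjusted p = 0.000588).

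Among 12 genes of proteins at the inner face of cell junctions and of adhesion partners, 6 rose and 3 fell from GV to MII, with a median log2 fold change of 1.94 against -0.53 for all genes, of which 17.4% rose and 22.2% fell. Pard3, whose product binds the tail of junctional adhesion molecules, went from 115 ± 2 TPM in GV to 357 ± 93 TPM in MII. Pard6b, a subunit of the same polarity complex, showed the largest rise of the list (4.15 ± 0.36, edgeR adjusted p = 0.000518). Cldn6 and Cldn7, which code for claudins of tight junctions, were the 2 of the list that rose in EpiC, where 2.63% of all genes did. They went from 4.15 ± 1.03 to 127 ± 46 TPM and from 1.72 ± 0.36 to 64.5 ± 39.1 TPM.

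Aqp3 was high in ESC and near 1 TPM or below it in the other groups. It lies at chr4:41092722-41098183 on the minus strand. Its level was 199 and 143 TPM in ESC, 1.02 and 1.31 TPM in EpiC, 0.171 and 0.141 TPM in GV, and 0.0587 and 0.134 TPM in MII. The ESC mean was 147 times the EpiC mean, 1097 times the GV mean and 1774 times the MII mean. The oocyte libraries stood below both EpiC libraries, and MII stood below GV by a margin that did not pass the test above. Its coding transcript Aqp3-001 made up 89.3% ± 0.8 of the gene in ESC and Aqp3-002, which retains an intron, 10.7% ± 0.8. The share of Aqp3-002 was 0% and 71.2% in the MII libraries, on 4 to 10 counts for the gene. Transcript usage passed the test in no comparison (adjusted p = 1 for GV against ESC).

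The aquaporin with the highest level in oocytes was Aqp9, another aquaglyceroporin. Aqp9 was at 28.2 ± 5.5 TPM in GV and 55.5 ± 4.8 TPM in MII, against 1.35 ± 0.17 TPM in ESC and 2.97 ± 1.82 TPM in EpiC. It was higher in GV than in ESC by 4.68 ± 0.57 (edgeR adjusted p = 0.000159) and rose from GV to MII by 2.14 ± 0.51 (adjusted p = 0.00854). Of 9 aquaporins tested beside Aqp3, 3 were higher and 3 lower in GV than in ESC, where 28.3% and 31.3% of all genes were. None was called between ESC and EpiC by edgeR, where 5.46% of all genes were. In that comparison, 1 was higher and 1 lower at an unadjusted p under 0.05, DESeq2 called 1 lower, and limma called 0. Aqp12 was listed at 0 in MII, ESC and EpiC.

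**Figure D3:**
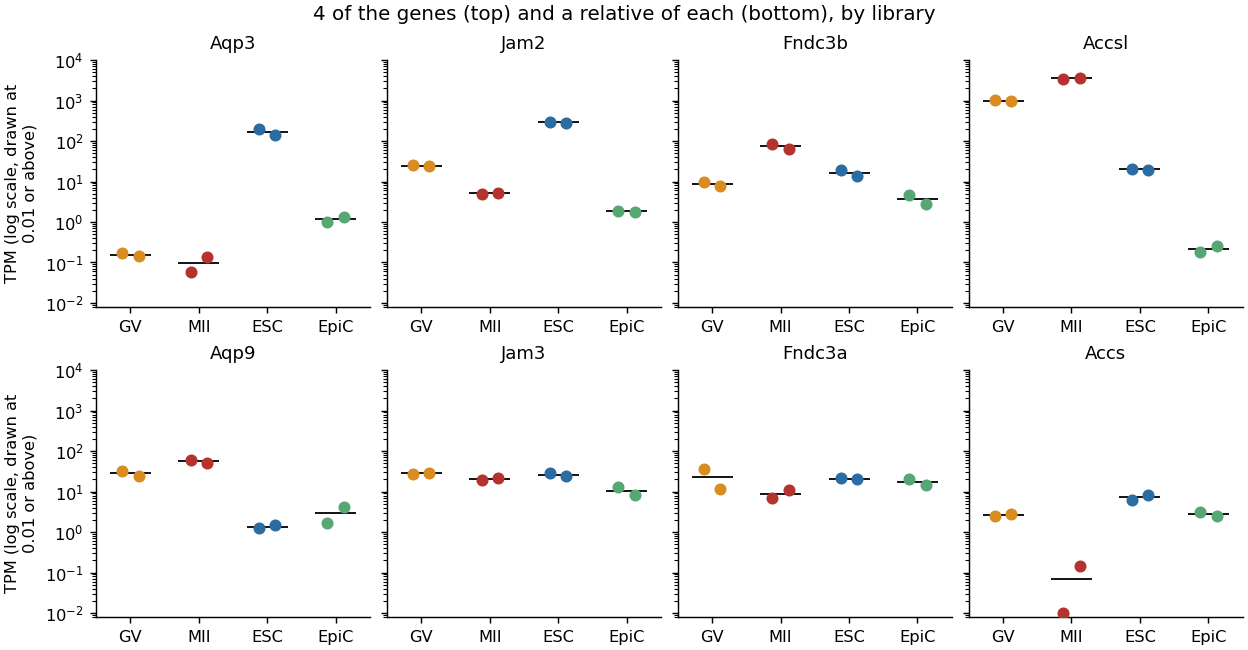
TPM (log axis, values under 0.01 drawn at 0.01) of Aqp3, Jam2, Fndc3b and Accsl in the upper row and of Aqp9, Jam3, Fndc3a and Accs below them, 1 point for each of 2 libraries per group and a line at the mean. Aqp9 stands above 20 TPM in all oocyte libraries where Aqp3 stands under 1 TPM, and Jam3 stays between 8.09 and 29.6 TPM.

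H2-M5 was an ESC gene with a low level in oocytes. It lies in the MHC at chr17:36984061-36989537 on the minus strand. Its level was 70.8 and 86.1 TPM in ESC, 4.89 and 4.64 TPM in GV, 3.76 and 4.83 TPM in MII, and 2.07 and 1.07 TPM in EpiC. GV and MII overlapped, and the other neighbouring groups in this order did not. The ESC mean was 50 times the EpiC mean, 16.5 times the GV mean and 18.3 times the MII mean, with fitted log2 fold changes of -6.16 for EpiC against ESC and -4.01 for GV against ESC. MHC class I genes are near copies of each other, so that reads could be given to the wrong member.

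The transcript with the full coding sequence held a small share of H2-M5 RNA in ESC and less in oocytes. H2-M5-001, with 1044 coding bases over 6 exons, made up 10.8% ± 0.4 of the gene's TPM in ESC, 0.866% and 0.356% in GV on 2.20 and 2.35 estimated counts, and 17.4% and 25.8% in EpiC on 12.3 and 25.9 counts. It had 0 counts in both MII libraries, which allows up to 1.30% and 0.456% of the gene's counts there. H2-M5-005, with 979 coding bases, made up 9% ± 1.6 of the TPM in ESC, on 164 and 908 of the gene's 4492 and 15905 estimated counts. It had 0 counts in the other 6 libraries. That allows up to 1.30% of the gene's counts, not of its TPM, in any oocyte library and up to 3.81% in EpiC. Both coding forms were therefore higher in share in ESC than in every oocyte library, and of the pair H2-M5-005 alone was without counts in EpiC. The rest was mainly H2-M5-003, which retains an intron and is not coding, and H2-M5-004, annotated as coding with 414 bases in all. Reads of H2-M5-003 and of unspliced RNA over its intron cannot be told apart in these tables. H2-M5-003 made up 60.1% ± 11.1 in ESC, 51.7% ± 13.6 in GV, 51.6% ± 9.5 in MII and 35.0% ± 1.4 in EpiC. H2-M5-004 made up 19.7% ± 8.6 in ESC, 47.6% ± 13.9 in GV, 48.4% ± 9.5 in MII and 41.5% ± 7.3 in EpiC. It rested on few estimated counts, 24.9 and 99.2 in GV, 17.2 and 83.3 in MII, and 8.30 and 9.64 in EpiC. As TPM is scaled by length, so short a transcript takes a larger share of TPM than of counts. The gene as a whole rested on 4492 and 15905 estimated counts in ESC and on 231 to 729 in the oocyte libraries.

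The usage of H2-M5 transcripts differed between GV and ESC (edgeR diffSpliceDGE, Simes adjusted p = 0.0073). This call was lost without GV replicate 1 (adjusted p = 0.0979) and without GV replicate 2 (0.15), in a range of 0.000201 to 0.15. Usage did not pass between MII and GV (adjusted p = 0.703) or between EpiC and ESC (adjusted p = 0.79). Over the whole group, 3 of the 5 genes with more than 1 transcript were called for GV against ESC, where 26.8% of all genes were, 1 for MII against GV (5.99% of all genes) and none for EpiC against ESC (0.092%). In EpiC against ESC, 4 of the 5 had an unadjusted Simes p under 0.05, and the F test per gene called 0. The share of all genes under that unadjusted p was not worked out, so the 4 cannot be set beside the 0.092%. Accsl, which is among them, rested on 5 and 14 estimated counts in EpiC.

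**Figure D4:**
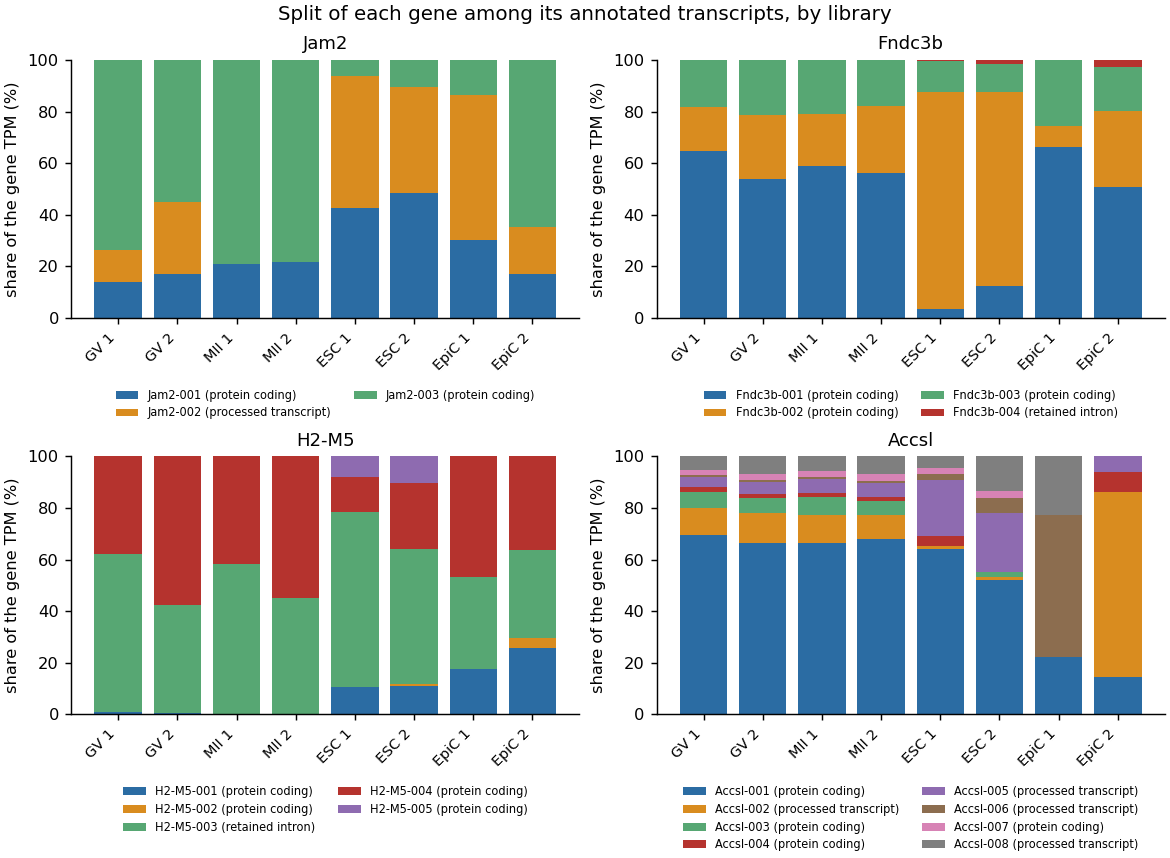
Share of each gene's TPM (%) held by each annotated transcript of Jam2, Fndc3b, H2-M5 and Accsl in each of the 8 libraries, as stacked bars. Jam2-003 holds 55.1% to 79.0% of Jam2 in oocytes and 6.23% to 10.6% in ESC, and Fndc3b-002 holds 79.7% of Fndc3b in the mean of ESC.

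Of 19 tested genes of class I chains and peptide loading, 1 rose and 2 fell from GV to MII, and 1 was higher and 5 were lower in GV than in ESC, against 39.6% and 59.6% of all genes called in either direction. Between ESC and EpiC edgeR called none, where 5.46% of all genes were called. At an unadjusted p under 0.05 it had 1 higher, while DESeq2 called 0 and limma 1 higher. B2m, the light chain that class I molecules need, was at 44.3 ± 1.7 TPM in GV, 8.96 ± 0.76 TPM in MII, 22.7 ± 1.6 TPM in ESC and 19.2 ± 10 TPM in EpiC. H2-K1, a classical heavy chain gene, was at 24.2 ± 6.7 TPM in GV, 18.2 ± 4.7 TPM in MII, 16.1 ± 3.3 TPM in ESC and 38.7 ± 19.2 TPM in EpiC, with no edgeR call. The neighbours of H2-M5 on both sides, looked up after the values were known, were also lower in EpiC than in ESC. EpiC was the lowest group for Zfp57, and MII for 2410137M14Rik. 2410137M14Rik, 2823 bases away, was at 2.67 ± 0.09 TPM in GV, 0.239 ± 0.133 TPM in MII, 29.3 ± 5.5 TPM in ESC and 0.872 ± 0.304 TPM in EpiC. Zfp57, a regulator of genomic imprinting 11625 bases away, was at 2289 ± 139 TPM in GV, 194 ± 49 TPM in MII, 426 ± 13 TPM in ESC and 45.8 ± 15.0 TPM in EpiC.

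Promoter sequence was compared because these genes fell together in EpiC while parting ways in oocytes. RefSeq (GRCm38.p6) gave windows from 250 bases before to 50 bases after a start site for 4 of the 6 genes, 6 windows in all, and none was found for Fbxo15 and Jam2. The 250 bases before the start site are shown for the gene highest in oocytes, Accsl (chr2:93869158-93869407, minus strand), and for Aqp3 (chr4:41098184-41098433, minus strand) and H2-M5 (chr17:36989534-36989783, minus strand), both low in oocytes. Each is written 5′ to 3′ on the strand of the gene, and capitals mark the letters TATAAA.
Accsl: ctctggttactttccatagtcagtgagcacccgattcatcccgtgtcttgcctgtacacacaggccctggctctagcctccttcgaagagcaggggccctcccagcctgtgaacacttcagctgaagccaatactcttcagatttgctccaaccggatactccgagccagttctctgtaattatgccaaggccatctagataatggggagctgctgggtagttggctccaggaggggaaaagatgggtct
Aqp3: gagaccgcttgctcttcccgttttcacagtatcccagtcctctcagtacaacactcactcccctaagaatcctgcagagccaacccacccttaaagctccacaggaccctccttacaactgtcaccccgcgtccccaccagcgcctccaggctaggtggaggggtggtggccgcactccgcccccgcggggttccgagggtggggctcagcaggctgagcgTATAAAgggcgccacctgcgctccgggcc
H2-M5: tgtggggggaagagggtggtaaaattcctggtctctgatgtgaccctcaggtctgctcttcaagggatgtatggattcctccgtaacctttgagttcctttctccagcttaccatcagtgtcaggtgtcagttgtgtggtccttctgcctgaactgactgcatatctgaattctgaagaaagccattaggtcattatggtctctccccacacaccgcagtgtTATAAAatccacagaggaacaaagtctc
TATAAA begins 29 bases before the start site in Aqp3 and 28 bases before it in H2-M5. On either strand it occurs in 13.6% of all 32851 windows of 300 bases. It was not in this Accsl window or that of Fndc3b, and it was in another Accsl window, upstream of the gene as GENCODE M21 draws it. Searched on both strands, the letters ATGCAAA (part of the octamer, 4.63% of all windows), ACAATG (a SOX core, 12.6%), AAGGTCA (an ESRRB core, 4.72%), CACGTG (an E-box, 7.15%) and TAATTG (a NOBOX core, 8.0%) were in none of the 6 windows. The number of CG pairs was 33 in the Fndc3b window, 21 in Aqp3, 6 in Accsl and 4 in H2-M5, against a median of 7 in all windows.

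The genes were then placed among all genes with a like fall. A total of 362 protein-coding genes had a mean of at least 10 TPM in ESC and stood at least 4 times above EpiC, limits that all 6 genes met. Fndc3b was nearest to the limit of 4, at 4.36 times, and ranked 321st by size of the fall. Jam2 ranked 6th, Aqp3 7th, Accsl 17th, H2-M5 31st and Fbxo15 76th. Of the 362, 30 (8.29%) were above the ESC level in both GV and MII, as Accsl was, and 32 (8.84%) in 1 of the 2, as Fndc3b was. A further 163 were below ESC in both with at least 1 TPM in either, as Fbxo15, Jam2 and H2-M5 were, and 137 (37.8%) were under 1 TPM in both, as Aqp3 was. By mean oocyte level Accsl ranked 3rd of the 362 and Aqp3 300th.

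**Figure D5:**
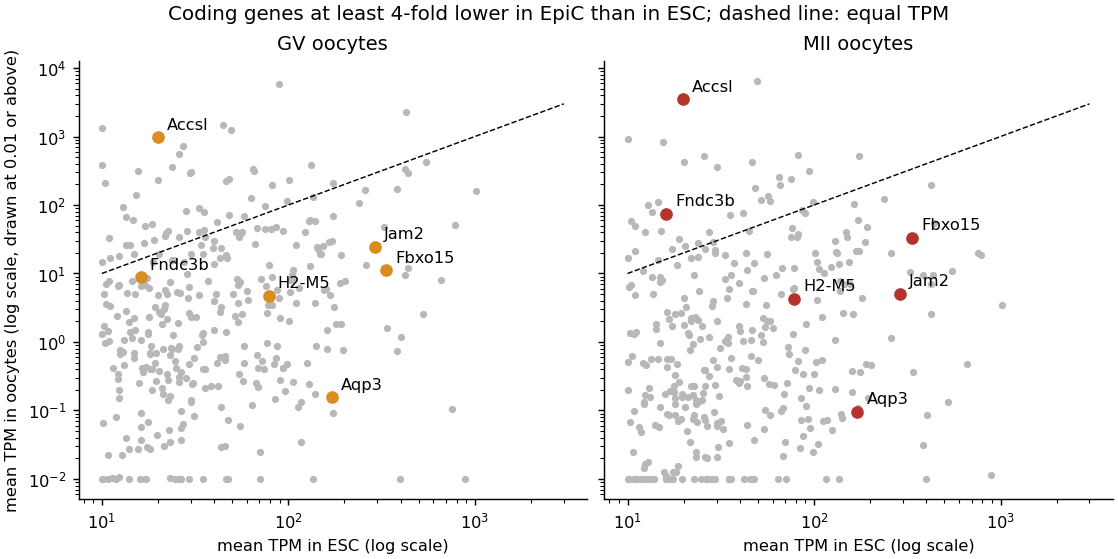
Mean TPM in GV (left) or MII (right) against mean TPM in ESC, both on log axes, for the 362 coding genes at least 4 times lower in EpiC, with values under 0.01 drawn at 0.01 and a dashed line at equal levels. Accsl lies far above the line in both panels, Fndc3b above it in MII alone, and the other 4 genes below it.

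The course of each gene was also set beside all other coding genes, by the root mean square difference of log2(TPM + 1) over the 8 libraries. The nearest gene to Accsl was Tcl1, a cofactor of AKT kinase with known roles in ESC and early embryos, at a distance of 0.85. Tcl1 was at 1261 ± 219 TPM in GV, 6470 ± 91 TPM in MII, 49.5 ± 40.5 TPM in ESC and 0.543 ± 0.415 TPM in EpiC. Slc45a3 and Aurkc, a kinase of meiosis, came next. The nearest to Fndc3b was Tmem38b, an intracellular cation channel gene, at 0.39, with 12.6 ± 0.1 TPM in GV, 87.7 ± 6.5 TPM in MII, 19.1 ± 6.6 TPM in ESC and 5.4 ± 1.3 TPM in EpiC, followed by Ssfa2 and Zfp654.

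Fbxo15 was nearest to Ulk1, a kinase that starts autophagy (0.65), Kat6b and Lamc1. Jam2 was nearest to Phf11d (1.03), Cobl and Gstp2, and Aqp3 to G430049J08Rik (0.44), Tfcp2l1 and Nid1. H2-M5 was nearest to Klf4 (0.56), Phf11d and Gm14444. Tfcp2l1 and Klf4 are transcription factors of naive pluripotency. Klf4 was at 138 ± 17 TPM in ESC, 3.68 ± 0.68 TPM in GV and 2.02 ± 0.57 TPM in EpiC, and Tfcp2l1 at 160 ± 45 TPM in ESC, 0.777 ± 0.043 TPM in GV and 2.38 ± 0.25 TPM in EpiC. The points of these distances share libraries, and the distances are descriptions.

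Known naive genes also differed from each other in their courses in oocytes. Of 20 such genes, 15 fell and none rose from ESC to EpiC (edgeR adjusted p under 0.05), where 2.83% and 2.63% of all genes did. Their median log2 fold change was -3.95, against 0.03 for all genes. At an unadjusted p under 0.05, 18 were lower and 1 higher, and DESeq2 and limma called 0 higher. Between GV and ESC, 14 were lower in GV and 4 higher, where 31.3% and 28.3% of all genes were, 59.6% together. The 4 higher were Tcl1, Dppa3, Gbx2 and Stat3, and Fgf4 was listed at 0 in all oocyte libraries. Of these 4, Tcl1 and Stat3 were called lower in EpiC than in ESC. Dppa3 (0.93 ± 0.37, edgeR adjusted p = 0.217) and Gbx2 (-0.24 ± 0.45, adjusted p = 0.973) were not, so they did not share the fall. From GV to MII, 6 rose and 5 fell, with a median of 0.51 against -0.53 for all genes, of which 17.4% rose and 22.2% fell. Nanog, at 884 ± 98 TPM in ESC, was at 0.00723 ± 0.01023 TPM in GV.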

How the data were processed

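RNA of 8 mouse libraries was sequenced, 2 each of GV oocytes, MII oocytes, ESC and EpiC. The submitters' processing notes name kallisto 0.43 and mm10 for the authors' quantification, while its index and strand setting are not given in the sources used here. Their deposited tables list estimated counts, TPM (abundance scaled by transcript length and library size) and effective lengths for 117667 transcripts.

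TPM and estimated counts were summed per gene identifier, 48440 genes in all, and summed estimated counts were rounded. The filterByExpr function of edgeR 4.0.16 (R 4.3.3) left 25045 genes, which were scaled by TMM, with factors of 0.405 to 0.422 in MII and 1.07 to 1.58 elsewhere. All 4 groups entered 1 quasi-likelihood fit (4 residual degrees of freedom), tested with glmQLFTest with Benjamini-Hochberg adjustment over all genes and a threshold of 0.05. Each SE is an approximation from the F statistic, the size of the log2 fold change divided by its square root. Transcript usage was tested with diffSpliceDGE on 11953 genes, with Simes p-values. On simulated counts for MII against GV (23868 genes), the test recovered 0% of genes changed by 1 on the log2 scale, 83.8% at 3 and 100% at 5, with 2.73% of calls false. The simulated stages shared their means except in the changed genes, so this share of false calls does not cover the shift in scale seen here. On simulated transcript counts for GV against ESC, the usage test recovered 53.5% of genes with a changed split, with 1.85% of calls false. TPM means are given ± SD (n = 2). Intervals from counts cover counting error only, and a count of 0 was taken to allow 3 counts.

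The 6 genes and all gene lists were chosen with earlier results of these data known. By the naming rule the text covers all 6 genes, their transcripts holding at least 10% of a gene in the mean of any group, and the 3 nearest genes by distance. From the lists, the rule admits genes with the highest levels, with the largest called changes or at 0, of which only some are named. Accs, Cul1, H2-K1, Gbx2 and Stat3 were named outside it after their values were seen. Protein sequences were not used here. Alternatives were relative log expression scaling, DESeq2 1.42.0, limma 3.58.1 on log2(TPM + 1) and log2(TPM + 0.1), no filter, a length offset, a fit of only the groups compared, removal of Gm42418 and mitochondrial genes, a replicate block, and each library left out.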

Additional observations from a re-analysis of the deposited data

How the results depend on the processing

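Accsl, Fbxo15 and Fndc3b kept their rise from GV to MII past the threshold under all 17 alternatives. The sign reversed for 2 genes that had passed no test, Aqp3 with a length offset (0.51), and H2-M5 with limma on log2(TPM + 1) (-0.13) and log2(TPM + 0.1) (-0.16). For MII against GV, 4357 genes were higher and 5572 lower, against 2408 and 8164 with limma on log2(TPM + 1) and 2275 and 9107 on log2(TPM + 0.1). For EpiC against ESC, 659 genes were higher and 708 lower, against 1527 and 1426 with DESeq2, 1303 and 1277 without a filter, 1287 and 1538 with limma on log2(TPM + 1), and 1151 and 1279 on log2(TPM + 0.1). With only the ESC and EpiC libraries, 424 were higher. The F test per gene raised transcript usage calls from 716 to 1219 for MII against GV and from 3203 to 5201 for GV against ESC, and the filter at 1 TPM raised those for EpiC against ESC from 11 to 20. The causes of these differences were not tested.

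With single libraries left out, a lone library being taken to vary like the other groups, MII against GV had 3232 to 4550 genes higher and 3533 to 5752 lower, with 3533 without MII replicate 1. GV against ESC had 5710 to 7236 higher and 5023 to 8165 lower, with 5023 without GV replicate 1. EpiC against ESC had 114 to 545 higher and 236 to 643 lower. Without ESC replicate 1 these were 114 and 236, without ESC replicate 2 299 and 413, and without EpiC replicate 1 356 and 291, and 370 were lower without EpiC replicate 2. Usage calls ran from 300 to 656 for MII against GV, with at most 419 when any GV or MII library was left out. They ran from 690 to 3611 for GV against ESC, with 690 without GV replicate 1, 785 without GV replicate 2 and 1087 without ESC replicate 2. For EpiC against ESC they ran from 7 without ESC replicate 2 to 30 without EpiC replicate 1, with 19 without ESC replicate 1 and 17 without GV replicate 2. The groups share replicate numbers, and nothing in the labels pairs the libraries. The correlations of deviations were 0.31 for MII and GV, 0.71 for EpiC and ESC, and -0.02 for GV and ESC. With a replicate block, 984 genes were higher and 1033 lower in EpiC, and usage calls were 869 for MII against GV, 3850 for GV against ESC and 11 for EpiC against ESC. Jam2 (-0.85, edgeR adjusted p = 0.0378) and H2-M5 (1.01, adjusted p = 0.0434) then passed the threshold for MII against GV, and no other call for the 6 genes changed. Depth limits the EpiC values of Accsl and the oocyte values of Aqp3.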
